A study of Nasonia vitripennis with 2 samples.

Results

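Trace CpGs are deeply read CpG sites of Nasonia vitripennis, a parasitoid wasp, at which a few reads kept an unconverted C. Sites were chosen by their own read counts: a trace CpG had 50 to 170 reads, at least 2 reads with an unconverted C, and 3% to 10% unconverted C. The rule found 7397 trace CpGs among the 14024488 CpG sites of the table. The data are whole-genome bisulfite sequencing of 1 pool of 50 adult females of the strain AsymCX, 24 h old, taken as whole bodies and sequenced in 2 lanes that the authors summed. AsymCX carries no Wolbachia, a bacterium that lives in insect cells, and its genome is the one that was assembled as the reference. Because 1 pool was sequenced under 1 condition, no value has a replicate, and no test between samples was possible.

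In insects such as the honey bee, DNA methylation lies mostly on CpG sites within the bodies of genes, where methylated sites stand close together, while most other sequence carries none. Bisulfite turns a non-methylated C into U, which is read as T, and leaves a methylated C in place. A read with C at a CpG therefore counts as methylated, but a failed conversion or a sequencing error gives the same letter, so that a low percentage of C can be read only beside the level found elsewhere. A pool of whole bodies mixes many cell types. Methylation in few cells and weak methylation in all of them cannot be told apart in such a sample.

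The table gives raw counts of C and T reads per CpG site, with both strands summed. It holds 226856322 counts, and the median site had 11 reads. Deep CpGs, with 50 to 170 reads, numbered 672038 and made up 4.79% of all sites. Of these, 22979 (3.42%) were mCpGs, which are sites with 10 or more reads of which more than 10% have C. The other 649059 deep CpGs lay at or below 10%, and the trace CpGs were 1.14% of them. The rest were 641662 lower CpGs, with less than 3% unconverted C, and 580776 of these (90.5%) had no C at all. Intervals given below are 95% Wilson intervals. They cover counting error only, and since neighboring sites share reads and PCR copies, they are narrower than the true error.

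The values that chose the trace CpGs are given here as a description. Their median depth was 61 reads (5th to 95th percentile 51 to 104), and they had 25194 unconverted Cs among 497066 counts, or 5.07%. In the lower CpGs the same share was 0.148%. At this depth a trace CpG rests on few reads. There were 2 unconverted Cs at 3085 trace CpGs (41.7%), 3 at 1665 (22.5%) and 4 at 1054 (14.2%), and the highest number was 16. The count rule itself removed no site, since every deep CpG at 3% or more had at least 2 Cs. At 66 reads a site with 2 Cs (3.03%) was inside the rule, and 155 sites had these counts. At 67 reads 2 Cs (2.99%) fell just outside, with 128 such sites. At the upper limit, 25 sites of 50 reads had 5 Cs (10.0%) and were trace CpGs, while 23 sites of 50 reads had 6 Cs (12%) and were mCpGs.

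Trace CpGs lay close to mCpGs. An mCpG stood within 500 bp of 4838 of the 7397 trace CpGs, or 65.4%, against 6.48% of all deep CpGs at or below 10% and 5.8% of lower CpGs before any weighting. The median distance to the nearest mCpG was 152.5 bp for trace CpGs, with quartiles of 52 and 1168 bp, over the 7144 that had an mCpG on their scaffold. For the 567964 lower CpGs with an mCpG on their scaffold the median was 14175 bp. The nearest mCpG is another site and was not used to choose the trace CpGs, but when it lies within the 75 bp of a read both sites can be counted from the same molecules.

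Trace CpGs and lower CpGs differ in their surroundings, so lower CpGs were weighted to the same depth and to the same number of CpG sites within 500 bp on each side. Of the trace CpGs, 7365 had at least 1 lower CpG of exactly the same values. With an mCpG within 500 bp were 65.4% of these trace CpGs (interval 64.3% to 66.4%) and 9.43% of the weighted lower CpGs (interval 9.28% to 9.59%), a difference of 55.9 percentage points (interval 54.8 to 57.0). The difference was already present at short range, where an mCpG within 75 bp was found for 32.5% of trace CpGs and 2.26% of lower CpGs. It was also present beyond the reach of a read, in a wider range where a site could have an mCpG within 75 bp too. An mCpG at 76 to 500 bp, farther than a read reaches, was found for 63.9% of trace CpGs and 9.16% of lower CpGs, a difference of 54.8 points (interval 53.7 to 55.9).

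The length of the scaffold moved with this comparison. On scaffolds reaching 1 Mbp lay 72.4% of the trace CpGs and 56.7% of the lower CpGs. When the length class of the scaffold was matched as well, 65.4% of trace CpGs and 19.0% of lower CpGs had an mCpG within 500 bp, and the difference was 46.4 points (interval 45.3 to 47.5). This matching, with depth and density in classes, was chosen after seeing the data. It raised the value of the lower CpGs, which was 9.51% with those classes alone. Within the scaffolds reaching 1 Mbp alone, the shares were 70.0% of trace CpGs and 24.3% of lower CpGs. Lower CpGs also stood out more from their own surroundings in depth. The median ratio of a site's depth to the mean depth of CpGs at 76 to 500 bp was 2.18 for trace CpGs and 3.04 for lower CpGs. Matching on that mean depth in place of scaffold length gave 65.4% of trace CpGs and 10.3% of lower CpGs.

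The share of deep CpGs with trace methylation fell steeply with distance. Within 25 bp of an mCpG, 823 of 2126 deep CpGs at or below 10% were trace CpGs, or 38.7% (interval 36.7% to 40.8%). The share was 21.9% at 26 to 75 bp, 13.1% at 76 to 150 bp and 5.36% at 151 to 500 bp. It was 1.37% at 501 to 2000 bp and 0.432% at 2001 to 10000 bp. Over all scaffolds it was 0.275% (interval 0.254% to 0.297%) at 10001 to 50000 bp and 0.278% (interval 0.247% to 0.312%) farther away, intervals that overlap. On the scaffolds reaching 1 Mbp the first share was 37.9% and the last 0.218%. Scaffolds with no mCpG at all held 253 trace CpGs among 73951 deep CpGs, or 0.342% (interval 0.303% to 0.387%). The level beyond 10 kbp depended on the rule, being 0.276% as chosen, 0.0295% at 100 to 170 reads, 0.0172% with a lower bound of 5% and 0.00786% with at least 4 Cs. What gave the unconverted Cs of the trace CpGs far from mCpGs was not tested.

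**Figure D1:**
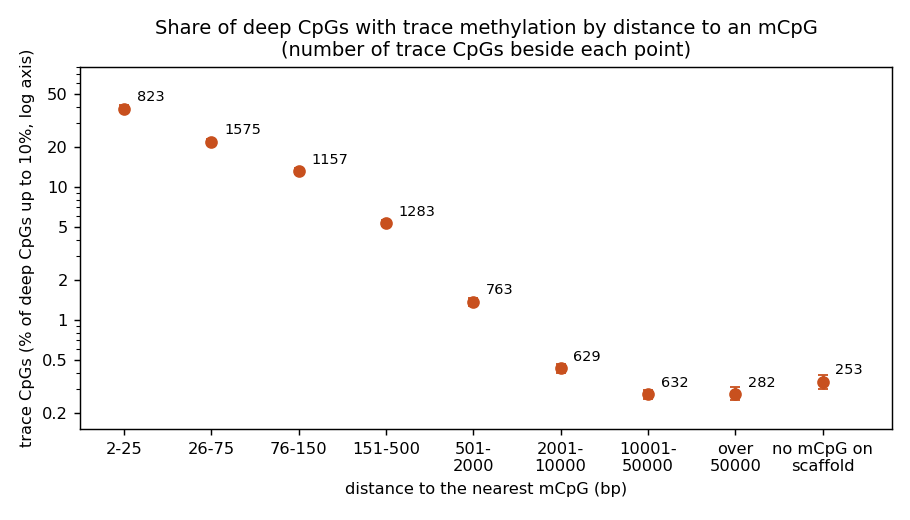
Percentage of deep CpGs at or below 10% unconverted C that were trace CpGs (y axis, log scale), in classes of distance to the nearest mCpG (x axis, bp), with 95% Wilson intervals and the number of trace CpGs beside each point. The share was 38.7% within 25 bp, 0.432% at 2001 to 10000 bp, 0.275% at 10001 to 50000 bp and 0.278% beyond 50000 bp.

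The trace class was not uniform, and its weakest members differed most from the others. Of the trace CpGs, 3678 had 3% to 4% unconverted C, and 45.9% of them (interval 44.3% to 47.5%) had an mCpG within 500 bp. Of the 3719 trace CpGs above 4%, 84.7% (interval 83.5% to 85.8%) had one. Split further, the share was 77.3% above 4% and up to 5%, 80.8% up to 6%, 88.5% up to 7%, 91.0% up to 8%, 89.4% up to 9% and 92.1% up to 10%. From 6% upward the intervals of neighboring classes overlap. Sites above 2% and under 3%, just outside the rule, had an mCpG nearby in 38.7% of cases (interval 36.9% to 40.4%), which lies below the interval of the class at 3% to 4%. The share was 4.93% for sites with no C and 93.0% for deep mCpGs above 10% and up to 15%. The intervals of the classes on both sides of the 10% limit overlap.

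**Figure D2:**
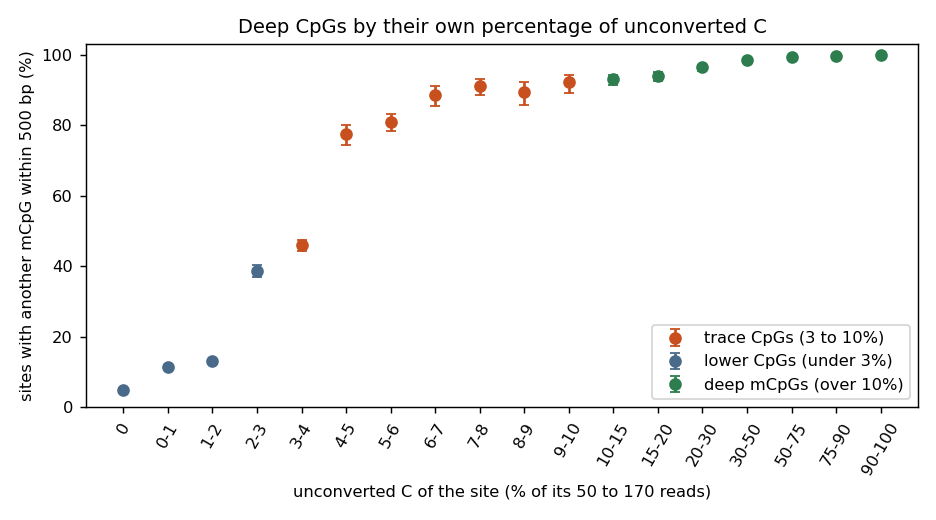
Percentage of deep CpGs with another mCpG within 500 bp (y axis), in classes of the site's own percentage of unconverted C (x axis), with 95% Wilson intervals. The share was 45.9% for trace CpGs at 3% to 4%, between 77.3% and 92.1% for those above 4%, 4.93% for sites without unconverted C, and 93.0% or more for deep mCpGs.

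Counted by distance, the same trace CpGs gave a description rather than a separate result, since the rule chose them by their unconverted Cs. Among trace CpGs with an mCpG within 500 bp, 65.1% lay above 4% and 26.1% had only 2 unconverted Cs. Among the 914 trace CpGs more than 10 kbp from every mCpG, 11.3% lay above 4% and 84.6% had only 2 Cs. The methylation percentage over all reads of the trace CpGs was 6.05% within 25 bp of an mCpG, 5.12% at 151 to 500 bp and 3.69% beyond 10 kbp.

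Trace CpGs were more often flanked by methylation on both sides than on 1. Both sides held an mCpG within 500 bp at 38.6% of trace CpGs and at 3.31% of the weighted lower CpGs, a difference of 35.3 points (interval 34.2 to 36.4). Only 1 side did at 26.8% of trace CpGs and 6.12% of lower CpGs. The next values compare the 4838 trace CpGs that had an mCpG within 500 bp with all 37243 such lower CpGs, without weighting to depth or density. A trace CpG had a median of 6 mCpGs in that range and a lower CpG had 2. The nearest mCpG of a trace CpG had a median methylation percentage of 43.2%, against 27.8% for that of a lower CpG. It was a weak one, at 25% or below, for 32.6% of these trace CpGs and 47.1% of these lower CpGs.

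The methylation of all other CpGs around a site gave the same order without any call of mCpGs. At 76 to 500 bp, where no read reaches both sites, 659939 of 5888282 counts around trace CpGs were unconverted Cs, or 11.2%. Around weighted lower CpGs the share was 1.09%, a difference of 10.1 points. With the length class of the scaffold matched too, it was 11.2% around trace CpGs and 2.04% around lower CpGs. Within 1 kbp of the trace CpG methylation was lowest right beside it, at 5.37% of counts at 2 to 10 bp and 6.69% at 11 to 25 bp. It was 8.51% at 26 to 50 bp, 10.7% at 51 to 75 bp and between 10.9% and 11.6% in every class from 76 to 1000 bp. At 5001 to 10000 bp it was 4.86% around trace CpGs and 1.90% around lower CpGs. The weighted lower CpGs also had their lowest value right beside the site, with 0.265% at 2 to 10 bp and 1.55% at 501 to 1000 bp. Deep mCpGs had the opposite profile, with 53.1% at 2 to 10 bp, 43.5% at 76 to 100 bp and 23.2% at 501 to 1000 bp. Within 75 bp the neighbors share reads with the site, which was itself chosen for a low percentage, so these values are not independent of the choice.

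**Figure D3:**
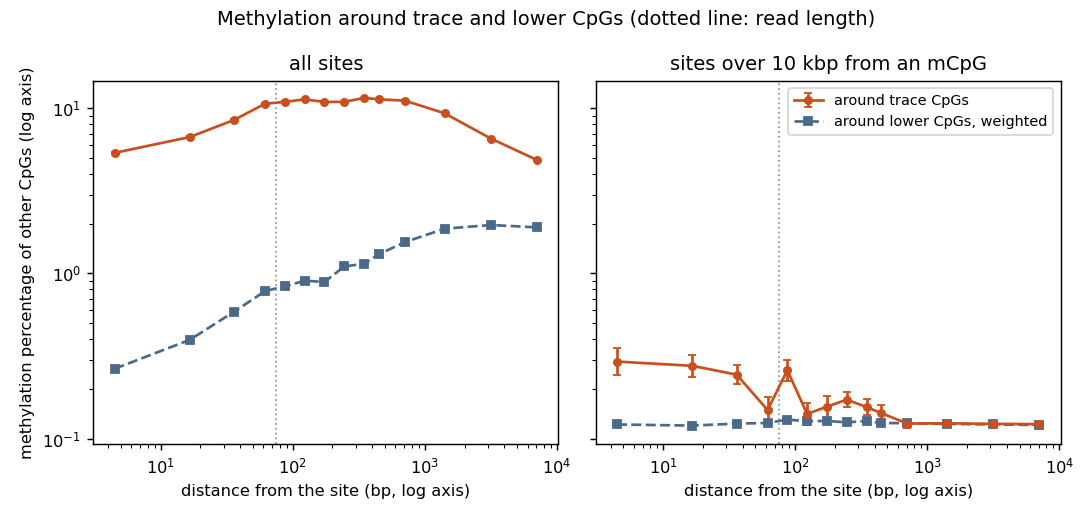
Methylation percentage of other CpGs (y axis, log scale) against their distance from the site (x axis, bp, log scale), for all sites (left) and for sites more than 10 kbp from an mCpG (right). Orange points are trace CpGs with 95% Wilson intervals, blue squares are lower CpGs weighted to the same depth and CpG density, and the dotted line marks the read length. Around all trace CpGs the value was 11.2% at 76 to 500 bp, against 1.09% around lower CpGs, and far from mCpGs it was 0.163%, against 0.127%.

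More trace CpGs lay just outside mCpG clusters than inside them, but among deep CpGs at or below 10% their share was higher inside. Clusters, called here as dense chains of mCpGs, numbered 5451 and had a methylation percentage of 63.5%. Inside them lay 875 trace CpGs, or 11.8% of all, against 0.266% of all deep CpGs at or below 10%. Another 2691 (36.4%) lay outside within 1 kbp of a cluster, where 5.83% of the weighted lower CpGs lay. Clusters are called for their many mCpGs, so that 18303 of their 20029 deep CpGs (91.4%) were mCpGs. Of the other 1726 deep CpGs inside, 875 (50.7%) were trace CpGs and 851 were lower CpGs. Among deep CpGs at or below 10% within 1 kbp outside, 9.70% were trace CpGs. Inside, the share was 61.5% more than 1 kbp inside the edge and 42.0% within 50 bp of it. A trace CpG inside was found in 735 clusters, or 16.7% of the 4410 clusters with a deep CpG, and 20 clusters held 3 or more.

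Outside the clusters the share of trace CpGs among all deep CpGs was highest at the edge. It was 30.2% (interval 27.6% to 33.0%) at 1 to 50 bp, where 69.3% were lower CpGs and 0.464% were mCpGs. The low share of mCpGs there follows from the call, since a cluster ends with its last mCpG. The share of trace CpGs was 18.7% at 51 to 100 bp, 15.2% at 101 to 200 bp, 7.88% at 201 to 500 bp and 5.09% at 501 to 1000 bp. It was 0.329% beyond 10 kbp and 0.353% on scaffolds without a cluster. Clusters were not needed for the nearness to mCpGs. Among trace CpGs outside clusters, 60.7% had an mCpG within 500 bp, against 8.67% of weighted lower CpGs, and 19.3% of trace CpGs had one while lying more than 1 kbp from any cluster, against 4.27% of lower CpGs.

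**Figure D4:**
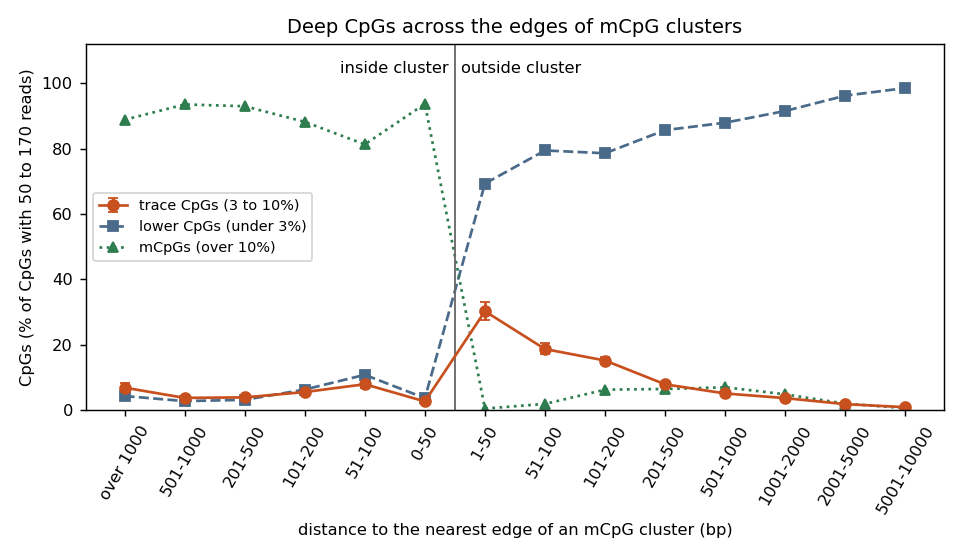
Percentage of CpGs with 50 to 170 reads (y axis) that were trace CpGs (orange, with 95% Wilson intervals), lower CpGs (blue) and mCpGs (green), in classes of distance to the nearest edge of an mCpG cluster (x axis, bp, inside on the left and outside on the right). Trace CpGs made up 30.2% at 1 to 50 bp outside an edge and 5.09% at 501 to 1000 bp.

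Trace CpGs lay in CpG-poor sequence. The median number of CpG sites within 500 bp was 28 for trace CpGs and 50 for lower CpGs. With 14 or fewer CpGs in that range, 996 of 14356 deep CpGs at or below 10% were trace CpGs, or 6.94% (interval 6.53% to 7.37%). With 80 or more it was 264 of 119670, or 0.221% (interval 0.196% to 0.249%). Methylated sites were in CpG-poor sequence too, with a median of 16 to 22 CpGs within 500 bp in the classes of deep mCpGs, and the part of density in the share of trace CpGs was not tested. The nearness to mCpGs held in all classes but the densest. With 14 or fewer CpGs, 89.6% of trace CpGs and 14% of weighted lower CpGs had an mCpG within 500 bp, and on scaffolds reaching 1 Mbp the shares were 94.3% and 51.1%. With 60 to 79 CpGs they were 12.9% of trace CpGs and 1.96% of lower CpGs, a difference of 11 points (interval 8.10 to 14.6). With 80 or more CpGs they were 1.15% of trace CpGs and 1.36% of lower CpGs, a difference of -0.212 points (interval -0.985 to 1.96), which does not exceed counting error. Another CpG 2 bp away, a CGCG tandem, was found at 4.74% of trace CpGs and 7.24% of lower CpGs of the same depth and density.

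Depth changed the make-up of the class. Of the trace CpGs, 4987 (67.4%) had 50 to 66 reads, where 2 Cs suffice, and 57.1% of those that could be matched had an mCpG within 500 bp, against 8.66% of lower CpGs. At 67 to 100 reads the share was 81.7% of trace CpGs, against 11.1% of lower CpGs. In the next deeper class it was 86.8%, against 11.8%, and in the deepest, up to 170 reads, it was 87.8%, against 6.73%. The percentage of trace CpGs among deep CpGs at or below 10% was 1.31% at 50 to 66 reads and between 0.871% and 0.906% in the deeper classes. The intervals of the 3 deeper classes of trace CpGs overlap.

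Trace CpGs were also found near each other. Another trace CpG lay at 76 to 500 bp from 22.3% of trace CpGs and from 4.38% of weighted lower CpGs. How much of this goes with the shared nearness to mCpGs was not tested. More than 2 kbp from every mCpG, 3.77% of trace CpGs (58 of 1539) and 1.38% of lower CpGs had such a partner, a difference of 2.39 points (interval 1.55 to 3.47). This difference was 0 points (interval -3.17 to 17.6) over the 18 trace CpGs of 100 to 170 reads. With a lower bound of 5% it was 4.57 points (interval 2.06 to 9.69) over 129 trace CpGs. With at least 4 Cs it was 8.45 points (interval 4.09 to 16.5) over 82. These settings rest on few sites, and all 3 trace CpGs of the SCAFFOLD32 patch described below have at least 4 Cs. More than 10 kbp away it was 1.65% of trace CpGs (15 of 911) and 1.03% of lower CpGs, a difference of 0.617 points whose interval (-0.0375 to 1.67) includes 0. Other CpGs around these far trace CpGs had slightly more unconverted C. At 76 to 500 bp the percentage was 0.163% (interval 0.154% to 0.171%) around trace CpGs and 0.127% around lower CpGs, and at 501 to 1000 bp it was 0.123% and 0.124%. Within 75 bp, where reads are shared, it was 0.230% around trace CpGs and 0.123% around lower CpGs.

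The trace CpG with the most unconverted C more than 10 kbp from an mCpG was at position 587636 of SCAFFOLD32, with 7 Cs among 78 reads (8.97%, interval 4.42% to 17.4%). The nearest mCpG was 68657 bp away. It stood in a small patch with unconverted Cs at several sites. Position 587653 had 3 Cs among 110 reads, position 587713 had 6 among 132 and position 587736 had 4 among 119, while position 587762 had none among 89 reads. Of 26 CpG sites between 587041 and 588108, 9 had at least 1 C, and 25 of 859 counts were unconverted (2.91%, interval 1.98% to 4.26%). Without the 3 trace CpGs of this patch, the percentage at 76 to 500 bp around the other 911 trace CpGs more than 10 kbp from an mCpG was 0.158%.

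The other far trace CpGs with the most Cs had 6 each. Beside position 587713 they were position 8075137 of SCAFFOLD1 (66 reads), position 7468697 of SCAFFOLD2 (99 reads) and position 1128789 of SCAFFOLD31 (82 reads). At 76 to 500 bp from them, 0 of 785, 0 of 260 and 1 of 1299 counts were unconverted. Counts of 0 allow up to 3 counts of these totals. Of all 914 far trace CpGs, 12 had 5 or more Cs. They were spread thinly, with 807 windows of 10 kbp holding 1, 46 holding 2 and 5 holding 3.

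Near methylation the trace CpGs were packed more densely. On SCAFFOLD384 between 20001 and 30000 bp, 13 of 28 deep CpGs at or below 10% were trace CpGs, in a window with 125 mCpGs among 179 covered CpGs, those with 10 or more reads. The strongest there was position 25083, with 6 Cs among 61 reads (9.84%) and an mCpG 49 bp away. The most Cs were at position 23010, with 13 among 140 reads. On SCAFFOLD58 between 560001 and 570000 bp there were also 13, among 37 deep CpGs at or below 10%, and 59 of 319 covered CpGs were mCpGs. On SCAFFOLD4 between 3460001 and 3470000 bp there were 12 among 43. There 17 of 477 covered CpGs were mCpGs, against 116929 of 7818889 over all sequences. All 12 lay in the last stretch of that window, from position 3468318 to position 3469885.

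That stretch of SCAFFOLD4 holds the cluster that was the nearest one, within 1 kbp, to the most trace CpGs outside clusters, namely 9, a short one from 3469061 to 3469351 where 5 of the 6 covered CpGs were mCpGs and methylation was 54.8%. Strong and weak sites alternated over short distances there. Position 3468915 had 45 Cs among 52 reads (86.5%), and position 3468929, 14 bp away, had 4 among 68 (5.88%). Position 3468997 had 6 among 70 reads (8.57%) and position 3469002 had 2 among 59 (3.39%). Inside the cluster position 3469351 had 56 Cs among 61 reads (91.8%). On its other side position 3469466 had 2 among 62 reads (3.23%), and position 3469485, 19 bp farther, had 25 among 99 (25.3%).

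**Figure D5:**
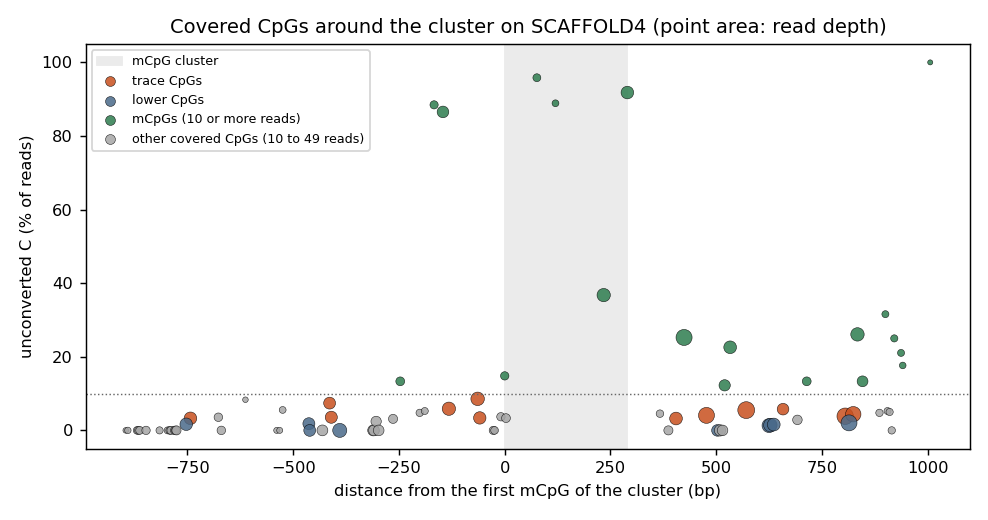
Percentage of unconverted C (y axis) of each CpG with 10 or more reads around the cluster on SCAFFOLD4, against the distance from its first mCpG (x axis, bp), with point area in proportion to depth. The shaded band is the cluster, the dotted line is the 10% limit of mCpGs, and trace CpGs stand on both sides of the band, between and beside mCpGs of up to 91.8% for those of 50 or more reads. Another cluster, not shaded, starts at position 3469982. The trace CpG at position 3469885, on the right, lies 97 bp from it.

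The cluster with the most trace CpGs inside was on SCAFFOLD17 from 63117 to 65777, where 30 of the 35 covered CpGs were mCpGs and methylation was 51.2%. Its 4 trace CpGs were at position 64628 (3 Cs among 66 reads), position 65050 (2 among 61), position 65067 (2 among 62) and position 65270 (4 among 54). Between the first and the last of them lay the mCpGs at position 64788 (28 Cs among 33 reads, 84.8%), position 64943 (36 among 40, 90.0%) and position 65171 (5 among 15, 33.3%). Another trace CpG, position 63069 with 4 Cs among 69 reads, lay 48 bp outside the cluster.

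Trace CpGs were found on 583 of the 3384 scaffolds with a deep CpG at or below 10%. Among the 354 scaffolds with 200 or more such sites, the median share of trace CpGs was 0.538%, and 57 had none. The highest share was that of SCAFFOLD1099, with 15 of 229 sites (6.55%, interval 4.01% to 10.5%), of which 14 had an mCpG within 500 bp. SCAFFOLD284 had 13 of 273 (4.76%) and SCAFFOLD164 had 30 of 812 (3.69%). The next, SCAFFOLD418 with 8 of 226 (3.54%) and SCAFFOLD397 with 7 of 210 (3.33%), have intervals that overlap those of the others, so the order of the 5 is not resolved. In all 5, mCpGs made up between 5.01% and 8.62% of the covered CpGs. Names of genes, exons and introns were not analysed here, since the gene table at hand is of another build.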

How the data were processed

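The authors sheared genomic DNA of the pool, converted it with bisulfite, sequenced it in a GAIIx lane and a HiSeq2000 lane, trimmed reads to 75 bp and aligned them with BWA to converted scaffolds, allowing 4 mismatches and keeping unique alignments without indels. Per the submitters' notes, CASAVA 1.7 was also used. The version of BWA, the release of the scaffolds and any removal of duplicates are not given in the sources used here. The deposited values are raw counts of C and T per CpG, without normalization and with lanes summed, so no lane, replicate or pair of samples could be compared. No value of a control DNA was used.

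Trace and lower CpGs were chosen from these counts. Lower CpGs were weighted by direct standardization to the exact depth and CpG density of the trace CpGs, with Wilson intervals from the effective number of sites and Newcombe intervals of differences. An mCpG cluster joined mCpGs with gaps of up to 500 bp and stopped at a run of 3 covered CpGs that were not mCpGs. It was kept with 4 or more covered CpGs when over 80% of them were mCpGs and methylation exceeded 40%. Sites named were, by rule, the 5 scaffolds with the highest share, the 3 windows of 10 kbp with the most trace CpGs, the 5 far trace CpGs with the most Cs, and the clusters with the most. The rule, the comparison and the lists were chosen with earlier results of these data known. The calculations were tested on simulated data. Alternatives in depth, thresholds and matching are given with the additional observations. Python 3.11.15, NumPy 2.4.6, pandas 2.3.3 and matplotlib 3.10.9 were used.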

Additional observations from a re-analysis of the deposited data

Results flagged for a closer look

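Unconverted Cs were also counted in data that the comparisons above do not use. On the sequence that the table names chrM2V, 53 of 28423 counts at CpG sites were unconverted Cs, or 0.186% (interval 0.143% to 0.244%), at up to 5712 reads per site. The share in the lower CpGs, 0.148%, lies within that interval. Among CpGs with more than 170 reads, which the rule leaves out, 37 lay at 3% to 10%, or 0.483% of those at or below 10% (interval 0.351% to 0.665%). An mCpG stood within 500 bp of 67.6% of these 37 (interval 51.5% to 80.4%), against 2.26% of the 7622 CpGs of that depth under 3%.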

How the results depend on the processing

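No paired analysis was possible because the 2 lanes are runs of 1 pool and are summed in the table, and for the same reason no replicate could be left out. Over 52 alternatives to 5 results, 20 were classed as unchanged and 32 as moved. The 20 include the count on scaffolds reaching 100 kbp, 6987 trace CpGs against 7397, a gap wider than counting error. None of the differences reversed, but that in trace partners fell to 0 points at 100 to 170 reads. The number of trace CpGs and their share beyond 10 kbp have no direction that could change. The number of trace CpGs was 7397, and was 15472 at 30 to 170 reads, 458 at 100 to 170 reads, 2898 with a lower bound of 5% and 2647 with at least 4 unconverted Cs. In the same order of settings, the difference in share with an mCpG within 500 bp was 51.0, 75.8, 75.2 and 78.2 points (55.9 as reported). The difference in methylation at 76 to 500 bp was 8.84, 14.3, 16.8 and 16.8 points (10.1 as reported). The share of trace CpGs beyond 10 kbp was 0.238%, 0.0295%, 0.0172% and 0.00786% (0.276% as reported). The difference in share with a trace partner at 76 to 500 bp, more than 2 kbp from an mCpG, was 0 points at 100 to 170 reads (18 trace CpGs). It was 4.57 points with the 5% bound (129 trace CpGs) and 8.45 with 4 Cs (82 trace CpGs), against 2.39 as reported. With mCpGs defined at over 20% it was 3.87 points, and the difference in share near an mCpG was 53.5. With mCpGs of 20 or more reads that difference in share near an mCpG was 54.7. With only lower CpGs without C it was 57.6, and that in methylation was 10.4. The difference in methylation was 10.2 with density counted in 250 bp, 10.1 on scaffolds reaching 100 kbp, 10.0 with neighbor depth matched and 10.1 with covered CpGs matched. With scaffold length matched, the differences in share and in methylation were 46.4 and 9.19 points, and with neighbor depth and scaffold length 45.8 and 9.02. These last 4 matchings were chosen after seeing the data. The rule's lowest depth and few Cs limit precision, since most trace CpGs rest on 2 or 3 Cs.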
